A study of Arabidopsis thaliana with 5 samples.

Results

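Constitutive sites are here the regions of the Arabidopsis thaliana genome where TREE1 was found in every chromatin immunoprecipitation sequencing (ChIP-seq) library of the study, with ethylene and in air. Peaks of the 3 ChIP libraries were merged wherever they shared at least 1 bp, and a region was kept when it held a peak of each library. This gave 4850 of 13729 merged regions (35.3%, Wilson 95% interval 34.5 to 36.1%). The regions were chosen by the authors' peak calls in these libraries, so their number and strength are a description and were not tested. They held 5076 of 9156 peaks called in ethylene library 1, 5111 of 9958 called in ethylene library 2 and 4880 of 8602 called in air. Positions are given on TAIR10, the build named in the submitters' processing notes.

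The groups were 2 libraries from seedlings given 10 ppm ethylene in hydrocarbon-free air for 4 h and 1 library from seedlings given hydrocarbon-free air for 4 h. All came from shoot tissue of seedlings grown in the dark for 3 days, in 1 line, written TREE1p::TREE1-GFP in the sample titles and pTREE1:TREE-GFP elsewhere in the labels. It carries TREE1 fused to green fluorescent protein under the TREE1 promoter, and an anti-GFP antibody pulled down the DNA. The labels do not say whether native TREE1 was present in this line, and no untagged line was analysed here. The labels do not say either whether the ethylene replicates were grown apart, so their spread may be technical, and with 1 air library no difference between treatments had a replicate check.

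Ethylene is a gaseous hormone that shortens and thickens the shoot of a dark-grown seedling. Its receptors and the kinase CTR1 hold the pathway off in air, and ethylene releases EIN2, which leads to the build-up of EIN3 and EIL1, the transcription factors that the F-box proteins EBF1 and EBF2 otherwise send for breakdown. The series title places TREE1 with EIN3 in transcriptional repression. A constitutive site is one where the tagged protein, or chromatin pulled down with it, gave a peak with or without the added hormone.

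Depth differed between the libraries. Ethylene library 1 kept 5884897 tags after duplicates were removed, ethylene library 2 kept 9459860 and air kept 9325092. Air peaks were wider than the others, with a median of 673 bp in the whole air list against 488 bp in each ethylene list. Levels are therefore given as tags per bp of peak and compared between libraries as percentiles among the 4850 regions of the same library, where 100 is the highest.

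Constitutive regions were longer than the rest, with a median of 774 bp (quartiles 636 and 998 bp) against 509 bp for the 8879 other regions. Of them, 4507 (92.9%) held exactly 1 peak of each library. A further count shows how broken up the others were: 203 regions held 2 or more peaks of ethylene library 1, 237 of ethylene library 2 and 28 of air. The median region had 0.161 tags per bp in ethylene library 1, 0.230 in ethylene library 2 and 0.229 in air, against 0.145, 0.204 and 0.200 tags per bp for the other regions of the same libraries. The constitutive regions took 58.8% of the tags in peaks in ethylene library 1, 61.7% in ethylene library 2 and 66.6% in air. Their density varied little: ethylene library 1 had quartiles of 0.148 and 0.178 tags per bp, ethylene library 2 of 0.211 and 0.251, and air of 0.212 and 0.249. The median counting error of a region's density, from its tag number alone, was 10.5% in ethylene library 1, 8.70% in ethylene library 2 and 7.60% in air. The distance between the quartiles was thus of the same order as such errors, which therefore weigh on the percentiles used below.

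The edge of the rule held few regions where overlap was concerned. The smallest shared stretch that kept a region linked was 32 bp, and 2 of the 4850 regions rested on 50 bp or less. Just outside, 22 of the 3730 regions held by a pair of libraries had a peak of the missing library within 50 bp, the nearest at 2 bp. The edge of the peak calls was more crowded. In 617 constitutive regions the weakest library had a score under 55, where the lowest score of such a peak was 50.01.

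The strongest sites by tag density were ranked by their worst place in the 3 libraries. Above all others in density stood 13 regions with more than 1 tag per bp in every library. Their fold enrichment over background was low, at 2.35 to 3.70 in ethylene library 1, 1.69 to 2.42 in ethylene library 2 and 1.82 to 2.62 in air. The median constitutive region had 4.16, 3.55 and 3.20 in the same libraries. Density alone thus set these 13 apart. One lay over UBQ13, a ubiquitin gene of chromosome 1, 11 lay on chromosome 2 and 1 on chromosome 3. The largest of them ran from 3386943 to 3394585 on chromosome 2, with 10736 tags in ethylene library 1, 11354 in ethylene library 2 and 11684 in air. These totals differed far less than the depth of the libraries did. As 1 tag was kept per position, a density of 2 tags per bp is the most that both strands allow, and the part of that limit in these values was not tested. The longest of all 4850 regions was this one, at 7643 bp. The second, 6825 bp long, ran from 3251842 to 3258666 on chromosome 2, with its mean summit inside AT2G07671, and was another of the 13, with 9863 and 10385 tags with ethylene and 10679 in air. The third, 6052 bp long, ran from 7141383 to 7147434 on chromosome 1 at the catalase genes CAT1 and CAT3, with 0.177 and 0.259 tags per bp with ethylene and 0.300 in air. Its percentiles were 74.0 and 81.2 with ethylene and 97.1 in air. The 13 dense regions were set aside from the ranking that follows.

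Of the next 10, the first lay in the pseudogene AT2G10600 on chromosome 2, from 4129997 to 4130310. It had 0.536 tags per bp in ethylene library 1, 0.524 in ethylene library 2 and 0.618 in air, from 143, 152 and 157 tags. A region in the pseudogene AT1G21945, from 7719449 to 7719791 on chromosome 1, had 0.381 and 0.457 tags per bp with ethylene and 0.449 in air, from 128, 132 and 133 tags. At this pair of sites, too, the tag numbers were close to equal although ethylene library 1 was shallower. The third lay 2705 bp from the nearest coding gene, AT2G18320, with 0.381 and 0.405 tags per bp with ethylene and 0.534 in air.

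The other 7 lay near ends of coding genes, and their tag numbers were lowest in ethylene library 1. The region near AT1G73885, whose mean summit fell inside the glucosyltransferase gene UGT89B1, had 0.345 and 0.402 tags per bp with ethylene and 0.390 in air. Near JAZ3, which encodes a repressor of jasmonate signalling, the densities were 0.286 and 0.384 tags per bp with ethylene and 0.358 in air. The mean summit there lay 78 bp outside the gene, in a region from 6119227 to 6119968 on chromosome 3. CLE40, a gene for a signalling peptide of the root meristem, and its neighbour AT5G12980 shared a region ranked 29 in each library, at 0.295 and 0.386 tags per bp with ethylene and 0.356 in air. Regions near AT2G44920, AT3G03060 with AT3G03070, AT5G64710, and AT4G31070 with AT4G31080 completed the set. In these 7 regions the percentile stayed between 99.3 and 99.7 in each library, with and without ethylene alike.

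**Figure D1:**
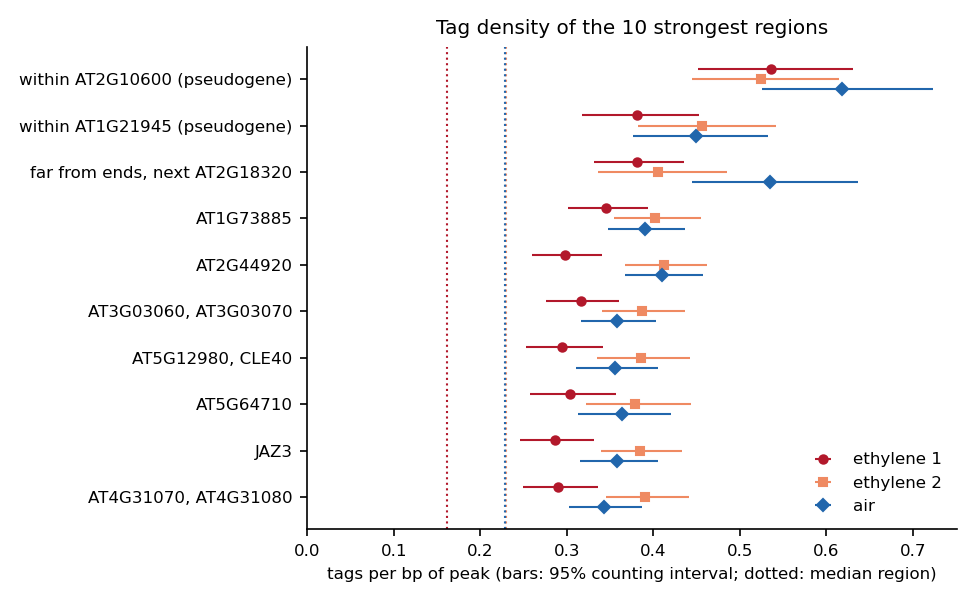
Tags per bp of peak (horizontal axis) of the 10 strongest constitutive regions at or under 1 tag per bp, by library; bars are exact Poisson 95% intervals, which cover counting error only, and dotted lines are the median region of each library. Every region shown lies to the right of all 3 medians, and ethylene library 1, the shallowest, lies left of ethylene library 2 in 9 of the 10.

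The next question was whether the libraries pointed to the same base pairs within a region. The summit of the highest peak of each library was used. The median distance was 55 bp between ethylene library 1 and air, 57 bp between ethylene library 2 and air, and 60 bp between the ethylene libraries. The median distance across treatments was therefore no longer than that between the replicates. Summits lay within 50 bp of each other in 46.9% and 46.1% of the regions for the ethylene libraries against air, and in 43.9% for the ethylene pair. They lay more than 300 bp apart in 314 and 311 regions for the ethylene libraries against air, and in 372 for the ethylene pair. The median signed shift was 3 bp or less in size in each of the 3 comparisons, so no library was displaced as a whole. Overlap of the peaks, which the rule asks for, limits how far apart summits can lie.

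All 3 summits fell within 50 bp in 1099 regions (22.7%) and within 10 bp in 85. The median span was 101 bp, with quartiles of 55 and 173 bp. Spans were shorter where enrichment was high: in the top 25% by fold the median span was 54 bp, and in the lowest 25% it was 147 bp. Long regions had wide spans, with a median of 178 bp in the longest 25% against 73 bp in the shortest. Among the regions in the top 25% by density, the 5 with the tightest summits spanned 1 or 2 bp. One of them had its mean summit inside HMGB1, which encodes a high mobility group protein of chromatin, next to AT3G51890, and held 0.206 and 0.343 tags per bp with ethylene and 0.268 in air. Another lay 481 bp from AT5G02220, with 0.238 and 0.285 tags per bp with ethylene and 0.262 in air. The pseudogenes AT1G21945 and AT2G07080 held a further pair, and the fifth lay 1034 bp from AT2G03690.

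**Figure D2:**
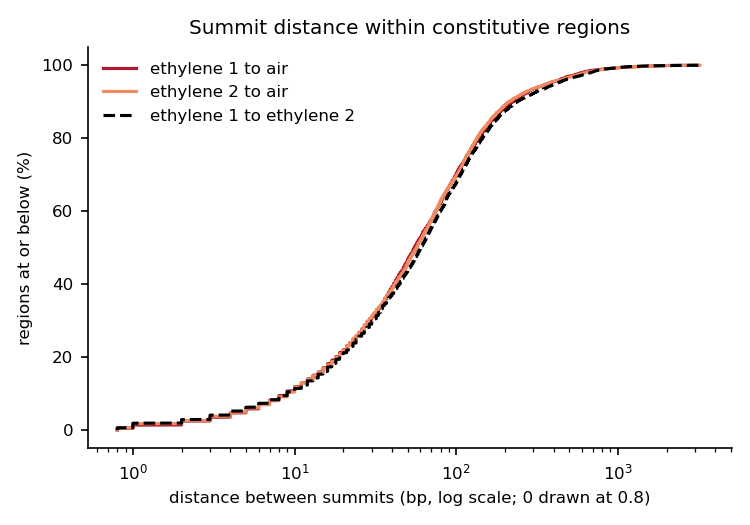
Share of constitutive regions (vertical axis, percent) whose summits in a pair of libraries lay no farther apart than the distance on the horizontal axis (bp, log scale). The 3 curves nearly coincide, with medians of 55, 57 and 60 bp.

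The place of the sites along the genome was not used by the rule. Their number followed the size of the chromosomes, with 1310, 748, 958, 720 and 1114 regions on chromosomes 1 to 5. Per 1000 coding genes this was 172 to 183 regions, and 34.5 to 36.3% of all merged regions were constitutive on each chromosome. The median gap to the next constitutive region was 11290 bp. The longest unbroken series, with no merged region of another class in between, held 9 constitutive regions on chromosome 4 from 18317917 to 18382417. It ran past BRI1, the brassinosteroid receptor gene, WRKY13, a transcription factor gene, PLS, which encodes a small peptide, SAMC1 and SK2. Within it densities ranged from 0.132 to 0.236 tags per bp in ethylene library 1, 0.195 to 0.335 in ethylene library 2 and 0.214 to 0.336 in air.

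Constitutive summits lay mostly just outside coding genes. The mean of the 3 summits was outside a coding gene but within 1000 bp of one in 2800 regions (57.7%, Wilson 95% interval 56.3 to 59.1%), against 48.2% (47.2 to 49.3%) of the other regions. It lay inside a coding gene in 1517 regions (31.3%, 29.99 to 32.6%), against 39.8% (38.8 to 40.8%) of the others. The outside share was 53.9% for regions of both ethylene libraries without air and 44.3% for air alone, so the gap was wider to some classes than to others. Farther sequence held 472 constitutive regions (9.73%) and other gene records held 61, among them 40 in long noncoding RNA genes. These intervals cover counting error only, and the difference between classes was not tested further.

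Within the 2800 outside regions the summit lay within 250 bp of the nearest end in 1979 (70.7%) and 750 to 1000 bp away in 155 (5.54%). Closeness to an end did not set constitutive sites apart. The median distance to a coding gene end was 146 bp over all constitutive regions and 132 bp over the other regions. Of the 1517 regions inside coding genes, 1026 (67.6%) were within 200 bp of an end. A pair of coding genes or more lay within 1000 bp of the summit in 1404 of the outside regions (50.1%). The gap between neighbouring genes that held a constitutive summit had a median length of 1738 bp, against 2102 bp for the other regions. All gaps between coding genes had a median of 877 bp. A long gap has more room for a summit, so that value cannot show a preference for long gaps. Because the gene table gives no strand, gene starts and gene ends could not be told apart.

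A coding gene was assigned to a site when one of its ends had the mean summit no farther than 1000 bp away on the outside or 200 bp on the inside. This gave 5663 of 27432 coding genes (20.6%). Of these, 5148 had 1 constitutive region, 507 had 2, and 8 had 3, namely AT1G01540, AT1G78070, AT2G07777, AT4G32480, AT5G65440, BPS1, FLA8 and SYP52. SYP52, which encodes a syntaxin of membrane fusion, had a region with 0.190 and 0.256 tags per bp with ethylene and 0.248 in air, one with 0.137 and 0.227 with ethylene and 0.224 in air, and one with 0.187 and 0.261 with ethylene and 0.260 in air. From the side of the sites, 1950 regions had 1 coding gene, 1920 had 2, 131 had 3 or more and 849 had none. Genes with a symbol of their own were assigned more often (24.8% of 10363) than genes known by a locus tag alone (18.1% of 17069). The lists described next consist of named genes, so 24.8% is the nearer background for them. Where a listed gene had more than 1 region, its values and rank changes are those of 1 of them. Counts of sites in the lists are therefore counts of genes.

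Genes of ethylene signalling were at constitutive sites in 7 of 16 cases (43.8%, Wilson 95% interval 23.1 to 66.8%). This interval holds the 24.8% of named genes. Their median density percentile over the libraries was 54.2, against 50.9 for all genes at such sites. Among the genes that act between receptor and nucleus, the receptor gene ERS1 had a site with 0.167 and 0.209 tags per bp with ethylene and 0.215 in air. CTR1, which holds the pathway off, had 0.215 and 0.294 with ethylene and 0.251 in air. ETP2, an F-box gene whose product targets EIN2, had 0.139 and 0.245 with ethylene and 0.226 in air. CTR1 lay at percentiles of 94.9 and 94.2 with ethylene and 76.8 in air, one of the higher places on the list.

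The nuclear end of the pathway was also held. EBF1 was the strongest of the list, with 0.200 and 0.284 tags per bp with ethylene, 0.260 in air, and summits within 19 bp. EBF2 had 0.148 and 0.271 with ethylene and 0.227 in air, EIN3 had 0.162 and 0.223 with ethylene and 0.244 in air, and EIL1 had 0.162 and 0.270 with ethylene and 0.217 in air. EBF2 lay at percentiles of 24.4 and 87.7 with ethylene and 47.7 in air, and EIL1 at 51.6 and 87.3 with ethylene and 32.7 in air. At this pair of genes the ethylene libraries thus stood farther from each other than ethylene library 1 stood from air. The same held at ETP2, at 10.6 and 69.5 with ethylene and 47.2 in air, and at ERS1, at 59.7 and 21.8 with ethylene and 29.1 in air. None of the 7 sites described was at least 20 points away from air in the same direction in both ethylene libraries. EBF1 and EIL1 had 2 regions each, of which 1 was counted.

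Of 19 ethylene response genes, 9 (47.4%, 27.3 to 68.3%) were at constitutive sites. ERF2, an ethylene response factor gene, had 0.199 and 0.244 tags per bp with ethylene and 0.215 in air, and RAV1, a gene of the EDF family of repressors, had 0.170 and 0.255 with ethylene and 0.212 in air. PORB, which encodes an enzyme of chlorophyll synthesis, had 0.155 and 0.241 with ethylene and 0.197 in air. At these 3 sites both ethylene percentiles were at least 20 points above air. TEM1, another EDF gene, had 0.174 and 0.239 with ethylene and 0.272 in air, and its ethylene percentiles of 70.3 and 62.5 were below the 90.8 of air. Among all 4850 regions, 9.11% were higher and 9.11% lower by this measure, beside 3 and 1 of the 9 sites here. Ethylene synthesis genes were at constitutive sites in 2 of 12 cases (16.7%), the ACC synthase genes ACS6 and ACS8, and the interval of 4.70 to 44.8% holds the 24.8% of named genes.

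Circadian clock genes had the highest share, with 11 of 19 (57.9%, 36.3 to 76.9%), and a median percentile of 68.7. AT3G54500, also known as LNK2, a coactivator gene, had 0.213 and 0.297 tags per bp with ethylene and 0.258 in air, with summits within 14 bp. The morning gene CCA1 had 0.182 and 0.278 with ethylene and 0.301 in air, and PRR7, a repressor of CCA1, had 0.197 and 0.238 with ethylene and 0.299 in air. PCL1, also known as LUX, had 0.188 and 0.245 with ethylene and 0.269 in air. The mean ethylene percentile was below that of air at 10 of the 11 sites, beside 2836 of all 5663 genes at constitutive sites. The median difference was -12.9 points, against -0.02 for all those genes. None of the 11 differed from air by 20 points in both ethylene libraries, and the pattern rests on 1 air library. CCA1, LHY and GI had 2 regions each, of which 1 was counted.

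Light signalling genes numbered 12 of 28 (42.9%, 26.5 to 60.9%). At 4 of these sites both ethylene percentiles were at least 20 points above air, and at none were both that far below, against 9.11% of all constitutive regions in each direction. They belonged to the photoreceptor genes PHYB and CRY2 and to COP1 and SPA1, whose products form a ubiquitin ligase that acts in the dark. PHYB had 0.196 and 0.281 tags per bp with ethylene and 0.239 in air, and COP1 had 0.200 and 0.244 with ethylene and 0.212 in air. SPA1 had 0.200 and 0.275 with ethylene and 0.241 in air, and CRY2 had 0.186 and 0.254 with ethylene and 0.217 in air. HY5, a transcription factor gene that COP1 opposes, ranked highest of the list, with 0.189 and 0.259 with ethylene and 0.284 in air.

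The other hormone lists lay between. Auxin genes were at constitutive sites in 15 of 36 cases (41.7%), led by the response factor gene ARF2, the receptor gene AFB2, the kinase gene PID and the influx carrier gene LAX1. AUX1 was at least 20 points above air with ethylene, and ARF19 and SHY2 were at least 20 points below. Abscisic acid genes numbered 10 of 24 (41.7%, 24.5 to 61.2%), with the kinase gene SNRK2.3 at percentiles of 91.4 and 94.0 with ethylene and 95.6 in air. ABA2 and ABA1 of abscisic acid synthesis and ABF3, a transcription factor gene, followed it. ABA1, at percentiles of 93.6 and 88.5 with ethylene and 60.3 in air, and the receptor gene PYL5, at 71.4 and 43.4 with ethylene and 1.93 in air, were at least 20 points above air in both ethylene libraries, and no gene of the list was that far below. The auxin and abscisic acid counts stand beside 9.11% of all constitutive regions in each direction. Gibberellin and brassinosteroid genes numbered 9 of 28 (32.1%, 17.9 to 50.7%), including BIN2, BAK1, GID1B and BZR1. GAI, which encodes a DELLA repressor of growth, was the one of these 9 at least 20 points above air, beside 9.11% of all constitutive regions. The intervals of this list and of the abscisic acid list hold the 24.8% of named genes.

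Outside the hormones, highly transcribed housekeeping genes were at constitutive sites in 9 of 17 cases (52.9%, 31.0 to 73.8%), with the highest median percentile of the 12 lists, 73.4. GRP7 had 0.226 and 0.257 tags per bp with ethylene and 0.302 in air, and TUA4, GAPC1 and ACT7 came next. The mean ethylene percentile was below that of air at 7 of the 9 sites, beside 2836 of all 5663 genes at constitutive sites. The median difference was -7.04 points, against -0.02 for all those genes. Translation genes numbered 6 of 16 (37.5%, 18.5 to 61.4%), with RPL23AA, RPL23AB, RPL24A and the kinase gene TOR in front. Cell wall and expansion genes numbered 6 of 19 (31.6%, 15.4 to 54.0%), led by the cellulose synthase gene CESA1 and the receptor kinase gene FER. CESA6 and CEV1, also known as CESA3, followed. The intervals of the translation and cell wall lists hold the 24.8% of named genes. Chromatin and corepressor genes numbered 6 of 27 (22.2%, 10.6 to 40.8%), near the background of named genes. Their strongest, WDR5a, of histone methyltransferase complexes, lay at percentiles of 98.2 and 98.7 with ethylene and 96.9 in air, ahead of the corepressor gene TPL, the remodeller gene BRM and the deacetylase gene HDA9. HAC1, a histone acetyltransferase gene, was the one of these 6 at least 20 points below air. CESA6 was the one of the cell wall list, at percentiles of 32.8 and 30.2 with ethylene and 59.4 in air. UBC9 was the one of the housekeeping list, at 46.4 and 36.1 with ethylene and 68.0 in air. These counts stand beside 9.11% of all constitutive regions.

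**Figure D3:**
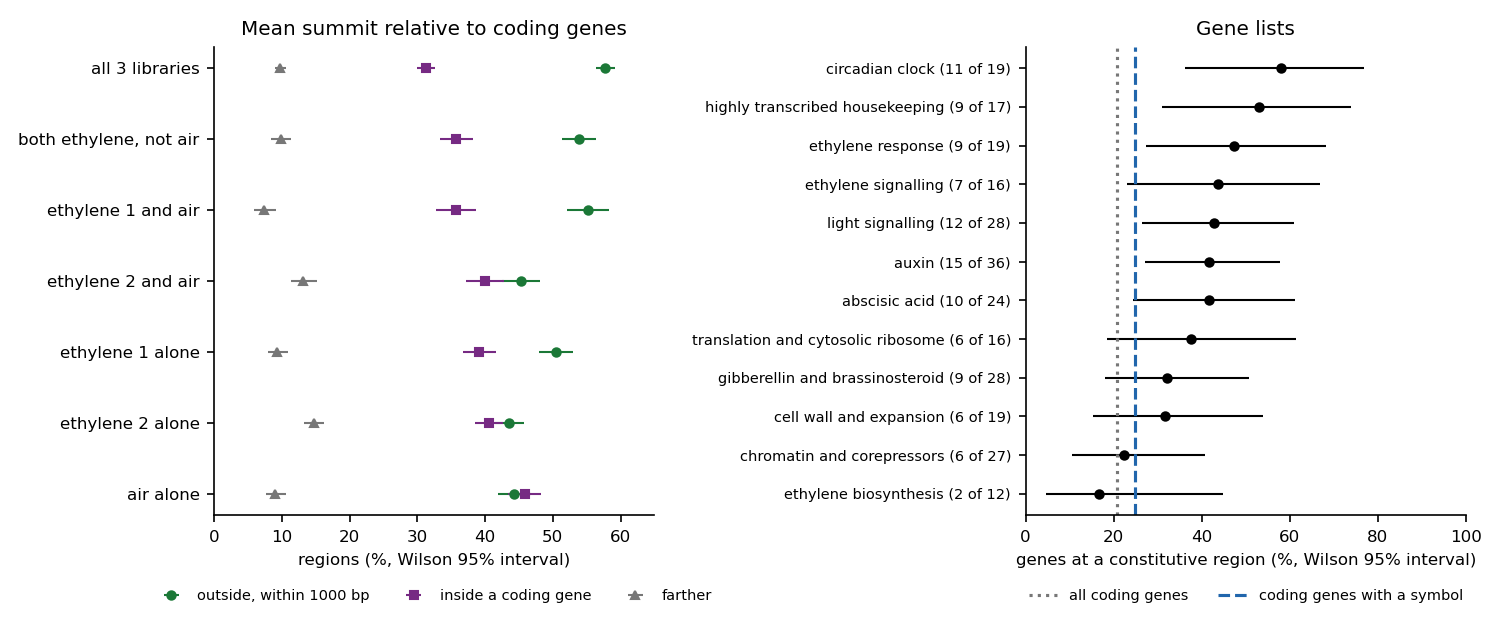
Left, share of regions (percent, bars are Wilson 95% intervals) by the place of their mean summit, with the constitutive regions on top. They have the largest outside share of the 7 classes, 57.7%, with an interval that overlaps that of ethylene 1 and air. Right, share of each gene list at a constitutive region, with the number of genes, a dotted line for all coding genes (20.6%) and a dashed line for coding genes with a symbol (24.8%).

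The last comparison asked whether the order of the constitutive sites changed with ethylene. By tag density the spread across treatments was about that between the replicates. Spearman's rho of tag density across the 4850 regions was 0.59 between ethylene library 1 and air, 0.61 between ethylene library 2 and air, and 0.59 between the ethylene libraries. These values describe regions of the same libraries, which are not independent replicates. The median change in percentile was 16.1 points for ethylene library 1 against air, 15.2 points for ethylene library 2 against air, and 15.5 points between the ethylene libraries. Changes of 20 points or more upwards were as frequent between the replicates (20.3% of regions) as in ethylene library 1 (20.9%) or ethylene library 2 (19.8%) over air. The fold enrichment of the peak caller gave another picture, with a rho of 0.51 between the ethylene libraries and 0.43 and 0.46 for ethylene libraries 1 and 2 against air. Peaks of both ethylene libraries were called with 1 shared input, those of air with its own. The part of the inputs in these values was not tested.

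**Figure D4:**
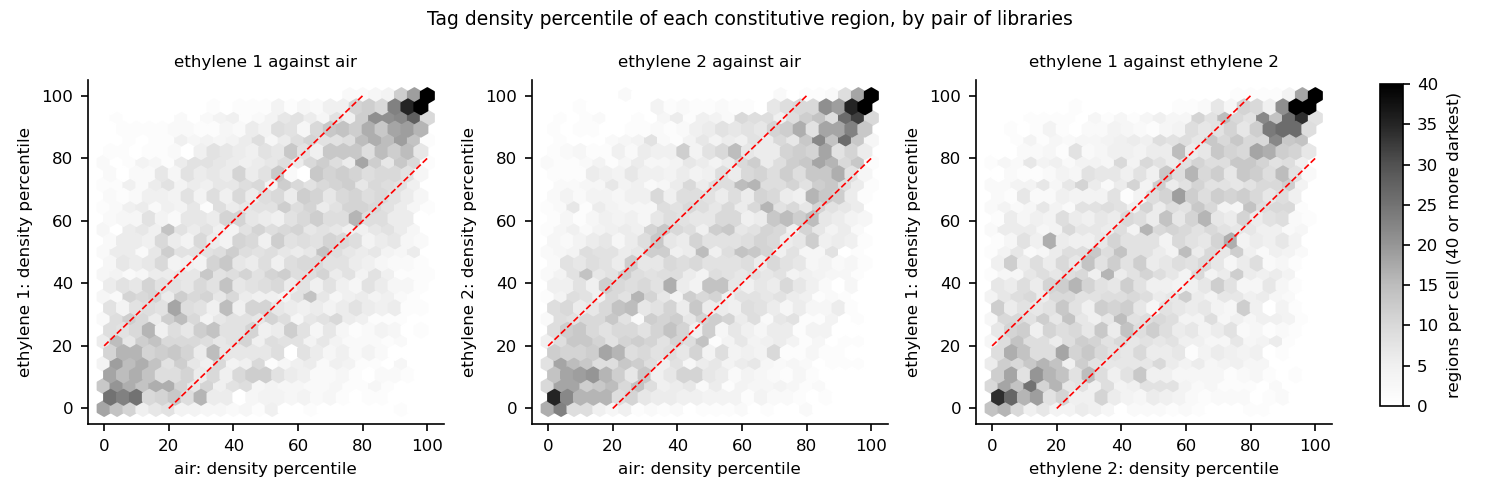
Density percentile of each of the 4850 constitutive regions in a pair of libraries, ethylene on the vertical axis; darker cells hold more regions, and the dashed lines mark differences of 20 points. The spread around the diagonal is alike in the 3 panels, with rho of 0.59, 0.61 and 0.59.

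Both ethylene libraries were at least 20 points above air in 442 regions (9.11%) and at least 20 points below it in 442 (9.11%). Equal numbers up and down are in part a property of ranks. In the regions that were higher with ethylene, the ethylene libraries differed from each other by a median of 9.76 points, and the mean shift over air had a median of 37.1 points. These regions were chosen for being above air in both ethylene libraries, so neither value is a check of the replicates. Median densities in them were 0.176 and 0.246 tags per bp with ethylene and 0.214 in air. In the regions that were lower, they were 0.151 and 0.214 with ethylene and 0.244 in air. The outside share was 56.3% for the higher and 57.9% for the lower regions, with overlapping intervals (51.7 to 60.9% and 53.3 to 62.4%). By mean density percentile, the top 25% of regions held 109 higher and 30 lower ones, and the lowest 25% held 33 higher and 105 lower ones. These groups were formed from the same percentiles, and a region near either end of the ranking has less room to differ by 20 points, so their counts are a description only. Density rose with peak length within each library (rho of 0.37, 0.33 and 0.30 in ethylene library 1, ethylene library 2 and air).

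Among the 10 regions that stood highest with ethylene relative to air, the largest shift was shared by the neighbours AT2G34238 and AT2G34240. Their region, from 14458701 to 14459202 on chromosome 2, had 86 and 143 tags with ethylene and 80 in air, or 0.186, 0.291 and 0.184 tags per bp. Its percentiles were 82.3 and 93.5 with ethylene and 2.09 in air. AT2G27660 followed, with the mean summit inside its neighbour AT2G27650, at percentiles of 88.1 and 91.5 with ethylene and 11.6 in air. A region with its mean summit inside MYC2, the central transcription factor gene of jasmonate signalling, and the overlapping AT1G32630 had 0.183 and 0.290 tags per bp with ethylene and 0.205 in air. BSK7, a brassinosteroid signalling kinase gene, had 0.199 and 0.264 with ethylene and 0.208 in air, and CINV2, a neutral invertase gene, had 0.176 and 0.314 with ethylene and 0.199 in air. By fold enrichment, both ethylene percentiles were below air at the MYC2 region (41.4 and 77.0 with ethylene, 87.3 in air) and at AT1G50110 (71.8 and 74.0 with ethylene, 75.9 in air). At BSK7 the ethylene libraries split around air by that measure, at 92.2 and 23.6 with ethylene and 68.0 in air. Regions with their mean summit inside AT2G46200 and SLD2, which overlap, and near AT3G25400, AT5G61940 and AT5G02580 completed the 10.

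Among the 10 that stood lowest, GME led, which encodes an epimerase of ascorbate and cell wall sugar synthesis. Its region, from 10861836 to 10862659 on chromosome 5, had 63 and 111 tags with ethylene and 222 in air, or 0.140, 0.204 and 0.269 tags per bp. Its percentiles were 12.97 and 15.8 with ethylene and 89.8 in air. Peak widths differed there as well, at 449 and 543 bp with ethylene and 824 bp in air. A region 3 bp from CESA6, which encodes a cellulose synthase of the primary wall, had 0.131 and 0.196 tags per bp with ethylene and 0.248 in air. BXL1, a glycosidase gene of wall remodelling, held the mean summit of a region of 4451 bp at 0.152 and 0.217 with ethylene and 0.281 in air. Its peaks covered 2191 and 2690 bp with ethylene and 4451 bp in air, and its percentiles were 30.9 and 32.7 with ethylene and 93.8 in air. By summit height they were 79.7 and 64.3 with ethylene and 80.8 in air, and by fold enrichment 88.0 and 60.3 with ethylene and 89.5 in air. NST-K1 lay at 0.132 and 0.195 with ethylene and 0.255 in air, and by fold enrichment its ethylene libraries split around air, at percentiles of 18.8 and 37.96 with ethylene and 24.3 in air. GOX2 with AT3G14410, BTI1 with TRH1, iqd2 with AT5G03030, AT5G55060 with AT5G55070, PIRL4, and a site 1878 bp from AT1G64620 made up the rest.

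**Figure D5:**
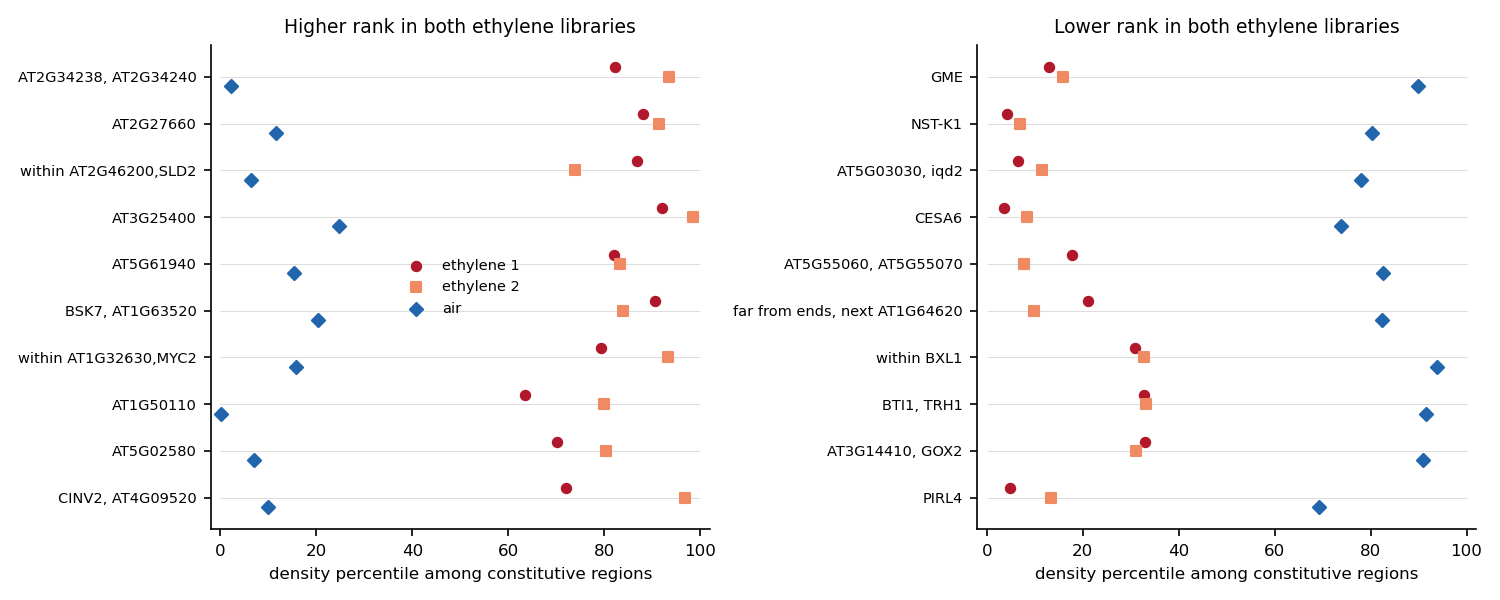
Density percentile by library of the 10 regions with the largest rise (left) and the 10 with the largest drop (right) in both ethylene libraries relative to air; the regions were chosen for this difference. In the left panel every air point is at or below 24.6 and in the right panel every air point is at or above 69.3.

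Counting error gave a second measure of these differences. Each region's density was divided by the median of its library, and exact Poisson 95% intervals were compared. The interval of both ethylene libraries lay above that of air in 5 regions (0.103%) and below it in 8 (0.165%). Of the 442 regions at least 20 points higher, 1 was among the 5, and of the 442 at least 20 points lower, 4 were among the 8. The others of the 13 moved by fewer than 20 points in at least 1 ethylene library. Considered in pairs, intervals were apart in 57 regions for ethylene library 1 against air, in 53 for ethylene library 2 against air and in 26 between the ethylene libraries. Air regions hold the most tags and so have the narrowest intervals. Higher with ethylene by this scaled density were regions near NF-YA9, which encodes a subunit of a CCAAT-binding factor, and ROPGEF4, an activator gene of ROP GTPases. The others were those near AT3G09690 and AT4G29090 and the one inside AT2G46200.

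The NF-YA9 region, from 7325959 to 7326736 on chromosome 3, stood at 1.99 and 1.69 times the library median with ethylene and 1.17 times in air. Peaks there were 516 and 504 bp wide with ethylene and 758 bp in air. They held 166 and 196 tags with ethylene and 203 in air. The ROPGEF4 region stood at 1.81 and 1.92 times the median with ethylene and 1.31 times in air. Its peaks were 693 and 572 bp wide against 1562 bp, with 202 and 252 tags against 468. In 4 of the 5 regions the single air peak was wider than each ethylene peak and held more tags. The part of width in the result was not tested. Lower with ethylene were regions near CAT1 with CAT3, catalase genes, VHA-A3 with RD19, IAA16, an auxin repressor gene, ZIFL1 with AT5G13760, AT3G26512 and AT5G26150. BXL1 and a region from 2717251 to 2720715 on chromosome 4 were the others. At IAA16 the values were 1.16 and 1.19 times the library median with ethylene and 1.43 times in air, with peak widths of 1755 and 1863 bp with ethylene and 1958 bp in air. At ZIFL1, a transporter gene, they were 1.07 and 1.13 times with ethylene and 1.47 times in air, with widths of 980, 993 and 957 bp. The median constitutive region had peaks of 547 and 560 bp with ethylene and 737 bp in air. The part of width in the ZIFL1 difference was not tested either.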

How the data were processed

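ChIP-seq libraries of 3 samples were used. The 2 input samples have no list of their own here and count only as background of the peak calls. The submitters' processing notes name BWA and the TAIR10 build. Per the file headers, MACS 1.4.2 called the peaks of each library against the input of its treatment at a p cutoff of 1e-05, with 1 tag kept per position. Run names in those headers carry another protein name, and the air run name carries a replicate label 2. The authors deposited raw counts of tags for each peak. Their score, as deposited, is 10 times the negative log10 of the p-value. Per the file headers the authors also give fold enrichment, a ratio to local background, and FDR in percent. The height of a summit is a deposited signal, the pileup of tags.

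Merging, ranks, gene assignment and intervals were computed here in pandas 2.3.3 and scipy 1.17.1, on numpy 2.4.6 under Python 3.11.15, and drawn in matplotlib 3.10.9, and merging and ranking were tested on simulated data. In a region with several peaks of a library, tags and lengths were summed and the highest summit was used. Gene names and positions came from a TAIR10.1 table, which gives no strand and no sequence, so gene starts and motifs were not analysed here. Its positions are not printed. Of 280 list entries, 261 matched 1 coding gene, after 3 symbols shared with unrelated genes were corrected, 1 of which then stayed unmatched.

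Sites, lists and rules were chosen with earlier results of these data known. Named regions are the 10 strongest, the 10 with the largest rise and the 10 with the largest drop in both ethylene libraries, the 5 tightest, the 3 longest, up to 4 genes of each list and the 3 genes with most regions. Other genes were named after their values were seen. No sequence is printed. Intervals cover counting error only, and duplicates are not independent molecules.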

Additional observations from a re-analysis of the deposited data

How the results depend on the processing

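Linking peaks by 50% of the shorter one, lists of equal length, leaving out peaks above 1 tag per bp and keeping regions with 1 peak of each library left the counts of regions, genes and rank changes within 1.5 times. The other settings moved some values. A minimum score of 100 gave 1456 regions, a median summit distance over all pairs of 52 bp against 58 bp, 175 higher and 167 lower regions and 1791 genes, since fewer peaks entered. Leaving out 1 ethylene library, so that air and the other library alone set the rule, gave 1140 to 1199 higher and 1127 to 1185 lower regions and an outside share of 54.7 to 56.4%. A threshold of 10 points gave 841 higher and 855 lower regions, and 30 points gave 219 and 188. Counting intervals apart from air, a rule added after seeing the data, gave 5 and 8. A distance of 500 bp gave an outside share of 49.4%. Of the 20 named shifts, 16 stayed past 20 points in both ethylene libraries by summit height and 9 by fold. Both libraries changed sign by fold at the MYC2 region (-45.9 and -10.3 points) and AT1G50110 (-4.04 and -1.85). One changed sign by height at BSK7 (-12.6, the other 40.4) and MYC2 (-8.74, the other 17.6), and by fold at BSK7 (-44.4, the other 24.2) and NST-K1 (13.7, the other -5.52). The cause was not tested. List counts stayed within 1.5 times in 96 of 108 recomputed values. The strict score accounted for 11 of the others, and the 500 bp window lowered ethylene synthesis from 2 genes to 1. The motif shares planned for promoters were not run, as no sequence was used here. No paired analysis was possible because air has 1 library, so the groups cannot share 2 replicate numbers. Ethylene library 1 was the shallowest, which widens its counting intervals.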

Other observations

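Gene families taken by symbol, after the results above were known, differed in how often they met a constitutive site. Cytochrome P450 genes did so in 23 of 229 cases (10.0%, Wilson 95% interval 6.79 to 14.6%), small secreted cysteine-rich LCR and SCRL genes in 7 of 107 (6.54%, 3.20 to 12.9%) and XTH genes of cell wall remodelling in 1 of 30 (3.33%). Higher shares were found for tubulin genes with 8 of 15 (53.3%), MAP kinase cascade genes with 17 of 40 (42.5%), IAA genes with 10 of 24 (41.7%), ERF genes with 9 of 23 (39.1%), cytosolic and other RPL and RPS genes with 17 of 44 (38.6%) and NF-Y genes with 13 of 35 (37.1%). Coding genes with a symbol of their own gave 24.8%. The intervals of IAA (24.5 to 61.2%), ERF (22.2 to 59.2%) and NF-Y genes (23.2 to 53.7%) hold that share. Those of tubulin (30.1 to 75.2%), MAP kinase cascade (28.5 to 57.8%) and RPL and RPS genes (25.7 to 53.4%) lay above it. WRKY genes (11 of 67, 16.4%), MYB genes (20 of 120, 16.7%) and NAC genes (16 of 81, 19.8%) lay near or below that share.

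Homeobox genes named HB or HAT were at constitutive sites in 10 of 44 cases, and 4 of the 10 sites were at least 20 points lower in both ethylene libraries than in air, with none higher. For NF-Y genes the numbers were 3 lower and none higher of 13. Among genes whose name mentions a heat shock protein or chaperone, 24 of 71 (33.8%) were at such a site, with 4 higher and 1 lower. These families were not tested, and the share over all constitutive regions was 9.11% in each direction. They were named from a longer set of families and name classes with the counts known. In that set, transcription factor genes had 13 higher and 13 lower, protein kinase genes 12 and 11, and transporter genes 5 and 10.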
